A study of Rattus norvegicus with 60 samples.

Results

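The 32 genes described here encode the machinery that folds, checks and ships proteins in the endoplasmic reticulum (ER), and they were followed in whole rat lung after inhalation of multi-walled carbon nanotubes (MWCNT). They form a list of ER chaperones, disulfide enzymes, lectin chaperones, translocation subunits, ER-associated degradation (ERAD) factors and transcription factors. The list was chosen by function, with earlier results of these data known. Of its genes 32 of 32 were found among the 30045 rows of the count table. The symbol itself matched 30 of them, Ero1b was found under an older RefSeq synonym (Ero1lb) and Derl2 under its RefSeq gene ID (LOC100910823). All 32 passed the filter on low counts, which kept 15995 rows.

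The exposed rats were male Fischer 344 rats (F344/DuCrl), 3 months old, that breathed MWCNT in a whole-body chamber for 6 hours a day over 3 days, and the controls were rats of the same strain, sex and age that breathed filtered air at the same time. Each cumulative dose was its own exposure set with its own air rats, and a piece of lung was taken 1 day after the last exposure. After 7 libraries with the submitters' outlier label were left out, 53 of 60 remained. The groups were MWCNT_180 (180 mg/m3, 5 libraries) with air_180 (6), MWCNT_090 (90 mg/m3, 4) with air_090 (6), MWCNT_045 (45 mg/m3, 6) with air_045 (3), MWCNT_022 (22.5 mg/m3, 6) with air_022 (6), and MWCNT_011 (11.25 mg/m3, 5) with air_011 (6). These library numbers are the n of every mean ± SD. For MWCNT_022 and MWCNT_011 the labels' concentration field gives 22 and 11 mg/m3, and the protocol's 22.5 and 11.25 mg/m3 are used here. Each library is taken to be 1 rat, so p-values reflect the spread between rats, and library numbers only name a library. The rats were kept 3 to a cage, and cage was not in the model. The 53 libraries held 8099154 to 16176867 counts, with 8099154 to 9915848 in MWCNT_180 and 9824265 to 12692692 in air_180. Because each dose was a separate set, dose and set cannot be told apart.

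Secreted and membrane proteins enter the ER through the Sec61 channel, are folded there by HSP70 and HSP90 family chaperones, receive disulfide bonds from the protein disulfide isomerases and sugar-dependent checks from calreticulin and calnexin, and are sent back to the cytosol for degradation when folding fails. When unfolded protein accumulates, the unfolded protein response raises many of these genes through the transcription factors ATF6 and spliced XBP1, which act at ER stress elements in their promoters together with NF-Y. The roles given here are those known in mammals, mostly from mouse and human cells. In the lung, heavy users of this machinery include alveolar type 2 cells, which secrete surfactant proteins, mucus-producing airway cells and antibody-producing plasma cells.

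Promoter letters were not used directly to choose the genes. Many members are, however, known targets of factors that act at ER stress elements. The shares below therefore describe the list and are no independent test of it. RefSeq (build GRCr8) gave a promoter window, from 250 bases before to 50 bases after the transcript start, for 26 of the 32 members; Pdia3, Pdia6, Manf, Derl1, Sec61a1 and Atf6 were not among them. The windows were searched on both strands for the ER stress element, CCAAT and CCACG separated by 9 bases, and for its second form, ATTGG and CCACG separated by 1 base. One form or the other stood in 12 of the 26 members (46.2%), against 38 of 27457 genes with a window (0.138%). The first form was in 9 members (34.6%) and in 21 genes of the table in all (0.0765%), and the second was in 3 members (11.5%) and in 17 genes (0.0619%). The sites follow in the direction of the gene, 5′ to 3′, with the 2 fixed parts in capitals, since their letters are what the 12 members share. A site that begins with CGTGG is the element on the opposite strand.
Hspa5 (chr3:38452973-38452991, gene on the plus strand): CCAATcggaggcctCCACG
Hsp90b1 (chr7:23012451-23012469, gene on the minus strand): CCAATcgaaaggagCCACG
Hsp90b1 (chr7:23012347-23012365, gene on the minus strand): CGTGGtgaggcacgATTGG
Dnajc3 (chr15:102432534-102432552, gene on the plus strand): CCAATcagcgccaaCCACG
Creld2 (chr7:121789239-121789257, gene on the plus strand): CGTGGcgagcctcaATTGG
Calr (chr19:40213135-40213153, gene on the plus strand): CGTGGtcgaccctgATTGG
Canx (chr10:35158069-35158087, gene on the minus strand): CCAATcatcacgctCCACG
Derl3 (chr20:12766601-12766619, gene on the minus strand): CGTGGgacttccttATTGG
Xbp1 (chr14:84604558-84604576, gene on the plus strand): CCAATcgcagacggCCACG
Ero1b (chr17:92941458-92941476, gene on the plus strand): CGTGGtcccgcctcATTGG
Hyou1, second form (chr8:53602694-53602704, gene on the plus strand): CGTGGgCCAAT
Hyou1, second form (chr8:53602794-53602804, gene on the plus strand): CGTGGcCCAAT
Dnajb11, second form (chr11:91672800-91672810, gene on the minus strand): ATTGGcCCACG
Herpud1, second form (chr19:10614821-10614831, gene on the minus strand): ATTGGgCCACG

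Hsp90b1 carried 2 sites of the first form and Hyou1 carried 2 of the second. The 250 bases before the start of Hspa5, of Hyou1 and of Xbp1 are given to show where the sites lie; Hspa5 and Hyou1 rose at the highest dose, and Xbp1 did not pass the test. The capitals again mark the fixed parts.
Hspa5 (chr3:38452766-38453015, plus strand): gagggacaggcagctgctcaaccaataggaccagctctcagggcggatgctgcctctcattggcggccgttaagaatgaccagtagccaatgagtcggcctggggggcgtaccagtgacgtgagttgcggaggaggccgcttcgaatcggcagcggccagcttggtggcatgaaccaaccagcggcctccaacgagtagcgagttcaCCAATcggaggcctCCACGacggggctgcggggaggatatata
Hyou1 (chr8:53602632-53602881, plus strand): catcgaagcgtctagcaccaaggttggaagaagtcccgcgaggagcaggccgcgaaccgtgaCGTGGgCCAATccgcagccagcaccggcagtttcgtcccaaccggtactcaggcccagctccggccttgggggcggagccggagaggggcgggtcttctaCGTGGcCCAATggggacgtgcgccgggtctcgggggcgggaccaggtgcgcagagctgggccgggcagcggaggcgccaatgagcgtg
Xbp1 (chr14:84604373-84604622, plus strand): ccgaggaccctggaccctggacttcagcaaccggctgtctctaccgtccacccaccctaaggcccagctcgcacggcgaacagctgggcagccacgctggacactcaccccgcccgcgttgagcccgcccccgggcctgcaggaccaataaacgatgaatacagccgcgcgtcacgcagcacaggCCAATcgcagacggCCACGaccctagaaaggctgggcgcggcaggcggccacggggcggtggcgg
In Hspa5 the site begins 43 bases before the transcript start, in Xbp1 65 bases before it, and in Hyou1 188 and 88 bases before it. Another sequence bound by XBP1 and ATF6, TGACGTGG, was in the windows of 2 members (Hyou1 and Txndc11, 7.69%) and of 187 genes of the table (0.681%). In Hyou1 it is no separate site, since it shares the letters CGTGG with the element that begins 188 bases before the start. Such a match describes the letters of these windows; it is neither a shown binding site nor a cause, and a window without a match says nothing about the factor.

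At the highest dose most of the folding machinery was higher, by small amounts, while the degradation branch and the transcription factors mostly did not pass the test. In MWCNT_180 against air_180, 20 of 32 members rose and none fell at an adjusted p under 0.05 (edgeR's quasi-likelihood test, Benjamini-Hochberg adjustment over the 15995 genes); over all genes tested 12% rose and 10.9% fell. Among the 8528 genes that averaged 20 CPM or more (TMM-scaled counts per 1000000 counts of a library), as 31 of the 32 members did, 10.7% rose. The median log2 fold change was 0.255 over the 32 members and -0.01 over all genes, and 29 members lay above 0. In 12 members every MWCNT_180 library was above every air_180 library, as in 7.32% of all genes. The members were chosen with earlier results of these data known, so these shares are a description and no test of the list. The summed level of the 32 members was 8148 to 9416 CPM in MWCNT_180 and 6990 to 7823 CPM in air_180, so the groups did not overlap. In whole tissue, more cells of a type and more RNA per cell cannot be told apart.

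Leaving out 1 library of these groups at a time gave 17 to 20 members called. With all 60 libraries in the model 1 member was called; 3 of the 7 added libraries had liver genes at 18.6% to 21% of their counts (at most 0.0379% in the 53), and with 57 libraries, without those 3, 19 were called.

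**Figure D1:**
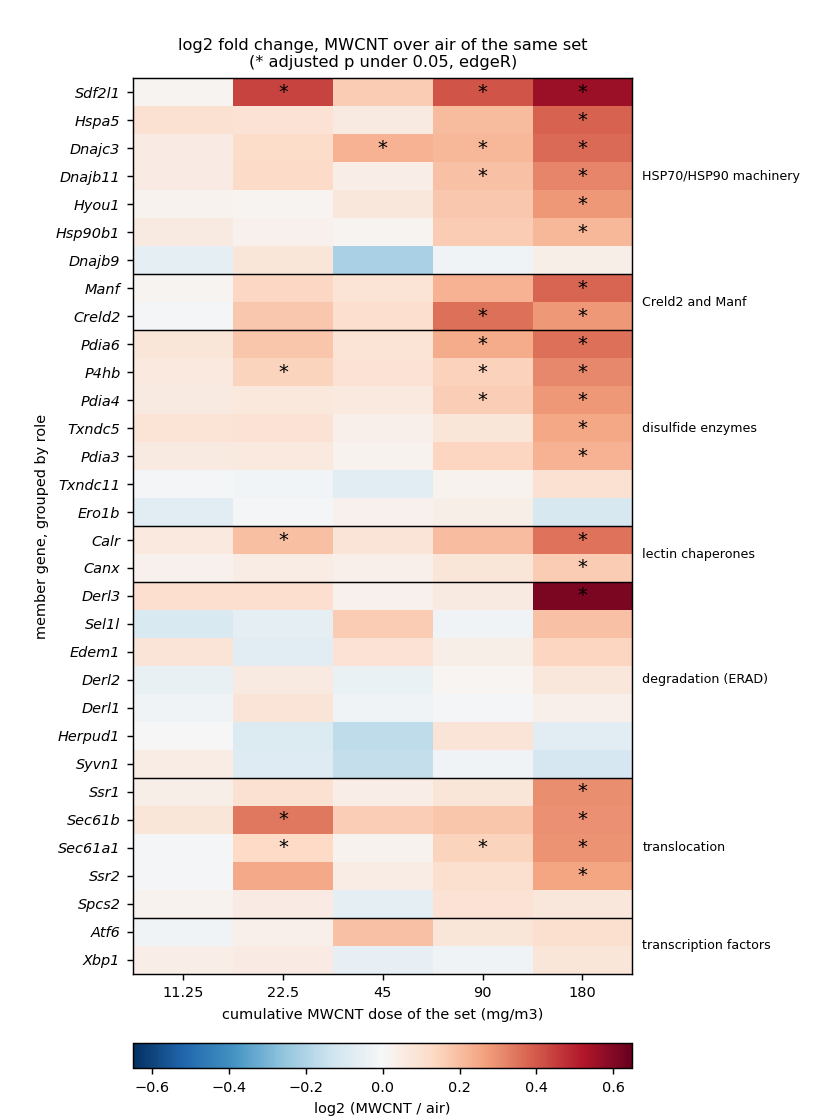
Log2 fold change of MWCNT over air in each of the 5 sets (columns, cumulative dose in mg/m3, low to high) for the 32 members (rows, grouped by role). Red is higher in MWCNT, blue is lower, and stars mark an edgeR adjusted p under 0.05; 20 members carry a star at 180 mg/m3 and none at 11.25 mg/m3.

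The HSP70 and HSP90 group rose in 6 of its 7 members. Hspa5, the ER's HSP70 chaperone BiP and the usual readout of ER load, stood at 767, 767, 936, 1042 and 1088 CPM in the MWCNT_180 libraries, against 606 to 848 CPM with a median of 686 CPM in air_180. The lower 2 MWCNT_180 libraries lay within the air range and the other 3 above it. Its log2 fold change was 0.38 ± 0.09 SE (edgeR adjusted p = 0.00179). Hyou1, a large HSP70 relative that helps BiP release ADP, stood at 185, 194, 214, 219 and 248 CPM in MWCNT_180 and at 162.3 to 189 CPM with a median of 173 CPM in air_180; 4 of 5 exposed lungs were above the highest air lung (log2 fold change 0.28 ± 0.06 SE, edgeR adjusted p = 0.000784). Hsp90b1, the ER's HSP90 known as GRP94, averaged 952 ± 80.9 CPM in MWCNT_180 and 820.2 ± 54.9 CPM in air_180 (SD, n = 5 and n = 6; log2 fold change 0.21 ± 0.06 SE, edgeR adjusted p = 0.00834). Without library 4 of MWCNT_180 its edgeR adjusted p was 0.0507.

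The J-domain co-chaperones, which deliver clients to BiP and drive its ATPase, split. Dnajc3, also called p58IPK, stood at 59.95, 60.02, 65.5, 65.7 and 66.1 CPM in MWCNT_180 and at 45.9 to 54.7 CPM with a median of 48.3 CPM in air_180, with no overlap (log2 fold change 0.37 ± 0.05 SE, edgeR adjusted p = 1.18e-08). Dnajb11, a soluble partner of BiP, stood at 94.1, 96.7, 100.5, 104 and 108 CPM in MWCNT_180 and at 74.8 to 86.9 CPM with a median of 80.3 CPM in air_180, again with no overlap (log2 fold change 0.32 ± 0.06 SE, edgeR adjusted p = 6.07e-05). Sdf2l1, which forms a complex with Dnajb11, averaged 31.4 ± 4.06 CPM in MWCNT_180 and 21.3 ± 2.20 CPM in air_180 (SD) and had a log2 fold change of 0.56 ± 0.11 SE (edgeR adjusted p = 0.000185). Only Derl3 had a larger log2 fold change among the 32. Dnajb9, another J-domain partner of BiP, did not pass: it averaged 50.8 ± 2.68 CPM in MWCNT_180 and 49.4 ± 3.78 CPM in air_180 (SD; log2 fold change 0.04 ± 0.07 SE, edgeR adjusted p = 0.768).

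Both secreted folding factors rose. Manf, which binds BiP in the ER and is also released as a trophic factor, averaged 106 ± 16.7 CPM in MWCNT_180 and 81.9 ± 7.24 CPM in air_180 (SD), a log2 fold change of 0.38 (edgeR adjusted p = 0.00791). Creld2, an EGF-repeat protein known as an ER stress target, averaged 50.9 ± 7.09 CPM in MWCNT_180 and 41.7 ± 5.58 CPM in air_180 (SD; log2 fold change 0.28 ± 0.10 SE, edgeR adjusted p = 0.0317). Its call was lost when any 1 of 6 libraries was left out (libraries 2, 3 and 4 of MWCNT_180 and 4, 5 and 6 of air_180), with an edgeR adjusted p of up to 0.118. The Creld2 locus overlaps Alg12 in RefSeq, so its counts are uncertain.

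Among the 7 disulfide enzymes 5 rose. P4hb, protein disulfide isomerase and also a subunit of collagen prolyl hydroxylase, stood at 678, 708, 715, 733 and 760.5 CPM in MWCNT_180 and at 558 to 598 CPM with a median of 584 CPM in air_180. Every exposed lung was above every air lung, and the log2 fold change was 0.31 ± 0.04 SE (edgeR adjusted p = 1.19e-08). Pdia4, an isomerase that associates with BiP, stood at 208, 213, 234, 237 and 255 CPM in MWCNT_180 and at 174 to 211 CPM with a median of 189.8 CPM in air_180; the lowest exposed library fell below the highest air library (log2 fold change 0.28 ± 0.05 SE, edgeR adjusted p = 2.64e-05). Pdia6, Pdia3 and Txndc5, which are isomerases too, had log2 fold changes of 0.36, 0.22 and 0.25 (edgeR adjusted p = 3.57e-05, 0.00242 and 1.2e-07), and in these 3 the groups did not overlap. Txndc5 had the smallest spread of these 3, at 183 ± 2.92 CPM in MWCNT_180 and 154 ± 3.28 CPM in air_180 (SD). Ero1b, one of the oxidases that recharge the isomerases, averaged 25.3 ± 1.14 CPM in MWCNT_180 and 27.2 ± 2.45 CPM in air_180 and did not pass (log2 fold change -0.10 ± 0.06 SE, edgeR adjusted p = 0.268). Txndc11, an ER membrane thioredoxin protein, had a log2 fold change of 0.10 and did not pass either (edgeR adjusted p = 0.137).

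Both lectin chaperones, which hold glycoproteins in the ER until they fold, rose without overlap between the groups. Calr (calreticulin) averaged 1201 ± 119 CPM in MWCNT_180 and 939.5 ± 78.6 CPM in air_180 (SD), a log2 fold change of 0.35 ± 0.07 SE (edgeR adjusted p = 3.38e-05). Canx (calnexin), its membrane-bound counterpart, averaged 805 ± 15.99 CPM in MWCNT_180 and 719 ± 21.4 CPM in air_180 (SD), a log2 fold change of 0.16 ± 0.04 SE (edgeR adjusted p = 0.00203), the smallest among the 20 members that rose.

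At the point of entry into the ER, 4 of 5 translocation genes rose. Sec61a1, the pore subunit of the channel, stood at 189.9, 192, 209, 214 and 222 CPM in MWCNT_180 and at 154 to 174 CPM with a median of 172 CPM in air_180, with no overlap (log2 fold change 0.29 ± 0.04 SE, edgeR adjusted p = 4.16e-07). Ssr1, a subunit of the translocon-associated TRAP complex, stood at 137, 139, 141, 145.2 and 145.3 CPM in MWCNT_180 and at 109.7 to 121 CPM with a median of 113.6 CPM in air_180, also with no overlap (log2 fold change 0.30 ± 0.05 SE, edgeR adjusted p = 8.53e-07). Sec61b, a small channel subunit, and Ssr2, another TRAP subunit, had log2 fold changes of 0.30 and 0.26 (edgeR adjusted p = 0.0362 and 0.0202). Those 2 calls rest on single libraries: Sec61b was lost without any 1 of libraries 2, 3 and 4 of MWCNT_180 or 2, 4 and 5 of air_180 (edgeR adjusted p up to 0.112), and Ssr2 without any 1 of libraries 2 and 3 of MWCNT_180 or 4 and 5 of air_180 (up to 0.0782). Spcs2, of the signal peptidase complex, did not pass (log2 fold change 0.07 ± 0.06 SE, edgeR adjusted p = 0.464).

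Of the 7 ERAD members 1 rose, a share near that of all genes, and the median log2 fold change of the 7 was 0.07. That member was Derl3, a derlin of the retrotranslocation complex (8.70 ± 1.61 CPM in MWCNT_180, 5.65 ± 0.947 CPM in air_180, SD), and its log2 fold change of 0.61 ± 0.13 SE was the largest of all members (edgeR adjusted p = 0.000283). The related Derl1 and Derl2 had log2 fold changes of 0.03 and 0.08 and did not pass (edgeR adjusted p = 0.668 and 0.337). Edem1, a lectin that takes misfolded glycoproteins out of folding, and Sel1l, the adaptor of the ERAD ubiquitin ligase, had 0.14 and 0.19 (edgeR adjusted p = 0.299 and 0.422). Herpud1, a ubiquitin-like scaffold of that ligase, had a log2 fold change of -0.07 (edgeR adjusted p = 0.558). Syvn1, the ligase HRD1 itself, stood at 84.7 to 100.7 CPM in MWCNT_180 and at 88.3 to 107 CPM in air_180 (log2 fold change -0.11 ± 0.06 SE, edgeR adjusted p = 0.153); without library 6 of air_180 it passed as lower (edgeR adjusted p = 0.0397). The difference between the ERAD genes and the chaperones was not tested. Derl3 overlaps Smarcb1, Syvn1 overlaps Mrpl49 and Herpud1 overlaps another gene model in RefSeq, and Derl1 has 5 annotated pseudogenes, so the counts of these 4 are uncertain. The same holds for Pdia3, Txndc11 and Atf6, which overlap Catsper2, Snn and another gene model, and for Hsp90b1, Pdia4 and Spcs2, which have 2, 1 and 1 annotated pseudogenes. RefSeq also places the pseudogene S100a10-ps1 across Dnajc3, and long non-coding RNAs across Canx, Dnajb9 and Sel1l.

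Neither transcription factor passed the test. Xbp1, whose mRNA is spliced by IRE1 to give the active factor, stood at 240.0, 254, 269.8, 277 and 292 CPM in MWCNT_180 and at 226 to 268 CPM with a median of 257 CPM in air_180 (log2 fold change 0.08 ± 0.06 SE, edgeR adjusted p = 0.367). The lower 2 exposed libraries lay within the air range and the other 3 above it. Gene counts do not separate its spliced from its unspliced form. Atf6, a membrane-bound factor released by proteases, stood at 136, 143, 147.1, 152 and 155 CPM in MWCNT_180 and at 126 to 147.1 CPM with a median of 135 CPM in air_180 (log2 fold change 0.10 ± 0.07 SE, edgeR adjusted p = 0.276), and the groups overlapped. Of the 12 members with an ER stress element in their window, 9 rose (of 16 risen members with a window), and the other 3 were Xbp1, Ero1b and Herpud1 (of 10 members with a window that did not pass).

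**Figure D2:**
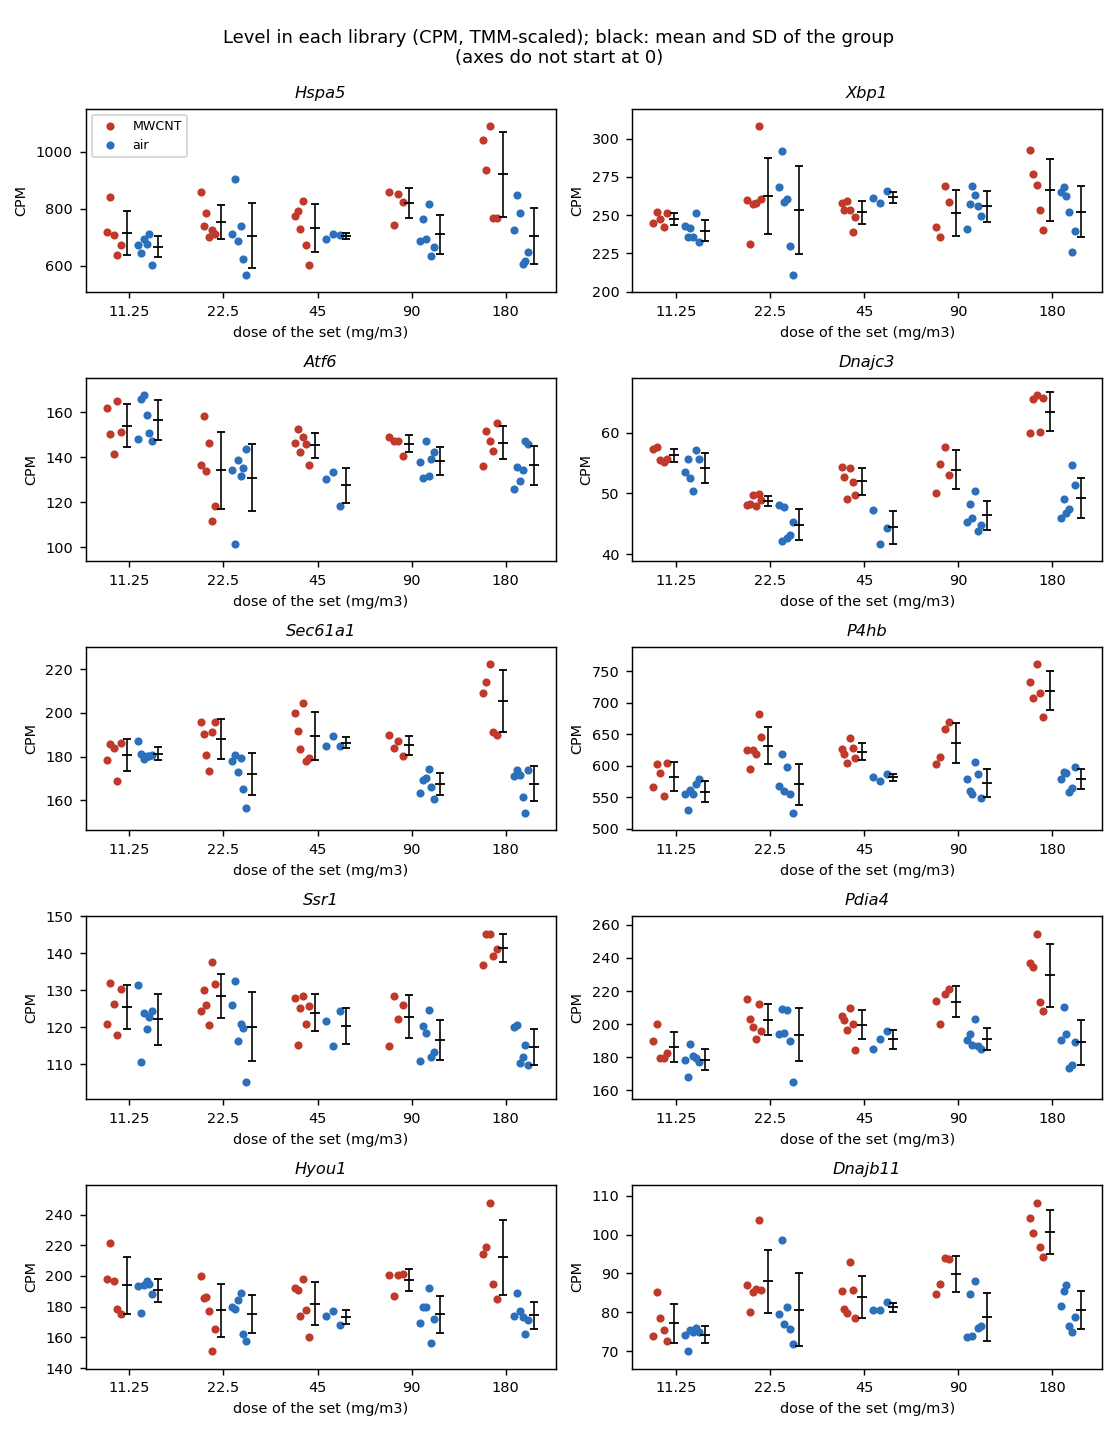
Level of 10 members in each of the 53 libraries (y axis, CPM, not starting at 0) by the dose of the set (x axis, mg/m3, low to high); MWCNT libraries are red and lie left of the blue air libraries of the same set, and black marks give the mean and SD of each group. At 180 mg/m3 the red and blue points are apart for Dnajc3, Sec61a1, P4hb, Ssr1 and Dnajb11, and they overlap for Hspa5, Pdia4, Hyou1, Xbp1 and Atf6.

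Below the highest dose fewer members rose, and none fell in any set. In MWCNT_011 against air_011 none of the 32 rose (0.025% of all genes rose and 0% fell; 1 member, Txndc5, had an unadjusted p under 0.05), and DESeq2 called none either. In MWCNT_022 against air_022, 5 rose, namely Sdf2l1 (0.44), Sec61b (0.34), Calr (0.20), P4hb (0.15) and Sec61a1 (0.13, all log2 fold changes), where 5.18% of all genes rose and 1.62% fell. In MWCNT_045 against air_045 only Dnajc3 rose (log2 fold change 0.23 ± 0.05 SE, edgeR adjusted p = 0.00604), where 3.32% of all genes rose and 2.09% fell, so the members' share was near the background; air_045 had 3 libraries, and without library 2 of air_045 the edgeR adjusted p was 0.0844. In MWCNT_090 against air_090, 8 rose (Sdf2l1, Creld2, Pdia6, Dnajc3, Dnajb11, Pdia4, P4hb and Sec61a1), with log2 fold changes between 0.15 for Sec61a1 and 0.41 for Sdf2l1, where 6.82% of all genes rose and 4.28% fell. The median log2 fold change of the 32 members was 0.03, 0.08, 0.04, 0.10 and 0.255 at 11.25, 22.5, 45, 90 and 180 mg/m3, while that of all genes lay between -0.01 and 0.01.

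The counts at 22.5 and 90 mg/m3 rest on single libraries. Leaving out library 5 of MWCNT_022 gave 1 member, leaving out library 6 of MWCNT_022 or 1, 3, 5 or 6 of air_022 gave 2, and leaving out library 2 of air_022 gave 10. With that set fitted alone no member passed. At 90 mg/m3, leaving out library 3 of MWCNT_090 gave 1 member (Dnajc3), library 4 of MWCNT_090 gave 4 and library 6 of air_090 gave 5.

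Dnajc3 had the smallest p of the 32 for a slope of the effect over dose. It stood at 55.2, 55.4, 55.7, 57.3 and 57.5 CPM in MWCNT_011 and at 50.4 to 57.1 CPM with a median of 54.6 CPM in air_011, which overlapped. In the next set its levels were 47.9 to 49.9 CPM with a median of 48.6 CPM in MWCNT_022 and 42.3 to 48.1 CPM with a median of 44.2 CPM in air_022, where the lowest exposed and the highest air library crossed slightly. MWCNT_045 ran at 49.03 to 54.3 CPM with a median of 52.3 CPM and air_045 at 41.8, 44.3 and 47.2 CPM, with no overlap. At 90 mg/m3 the levels were 50.03, 53.1, 54.8 and 57.7 CPM in MWCNT_090 and 43.8 to 50.3 CPM with a median of 45.6 CPM in air_090; the lowest exposed library lay below the highest air library. The fitted linear slope of its within-set log2 fold change was 0.07 ± 0.01 SE per doubling of dose (edgeR adjusted p = 0.000403). The air lungs also differed among sets for this gene (edgeR adjusted p = 9.42e-05), and their mean was highest in air_011 (54.1 ± 2.46 CPM) and lowest in air_045 (44.4 ± 2.73 CPM).

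P4hb and Sec61a1 passed the test as higher in exposed lungs at 22.5, 90 and 180 mg/m3. At 22.5 mg/m3 the Sec61a1 call (edgeR adjusted p = 0.0415) was lost when any 1 of 8 libraries was left out (1, 2, 5 and 6 of MWCNT_022 and 1, 3, 5 and 6 of air_022). It was also lost under 7 other alternatives, with an adjusted p of 0.0619 with DESeq2 size factors, 0.0623 by limma voom and 0.362 with the set fitted alone. P4hb at that dose was lost with the set fitted alone (edgeR adjusted p = 0.296) and with all 60 libraries. At 90 mg/m3 Sec61a1 was lost without library 1 or 3 of MWCNT_090 or 6 of air_090 (edgeR adjusted p up to 0.0779), and P4hb without library 3 of MWCNT_090 (edgeR adjusted p = 0.0529). P4hb averaged 583 ± 22.5 CPM in MWCNT_011 and 559 ± 16.6 CPM in air_011, 632 ± 29.4 CPM in MWCNT_022 and 570.5 ± 32.9 CPM in air_022, and 622 ± 13.7 CPM in MWCNT_045 and 582 ± 5.51 CPM in air_045 (SD). At 90 mg/m3 it stood at 603, 614, 658 and 668 CPM in MWCNT_090 and at 549.5 to 606 CPM with a median of 569.5 CPM in air_090. At 45 mg/m3 the P4hb groups did not overlap but the gene did not pass (edgeR adjusted p = 0.241). Sec61a1 averaged 181 ± 7.28 CPM in MWCNT_011 and 181 ± 2.92 CPM in air_011, 188 ± 8.97 CPM in MWCNT_022 and 172 ± 9.46 CPM in air_022, and 189 ± 11.0 CPM in MWCNT_045 and 186 ± 2.53 CPM in air_045 (SD). At 90 mg/m3 it stood at 180.1, 184, 187 and 189.9 CPM in MWCNT_090 and at 160.6 to 175 CPM with a median of 168 CPM in air_090, with no overlap. At the lowest dose both genes overlapped between exposed and air lungs.

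Hspa5 passed the test in no set below 180 mg/m3. It averaged 715 ± 76.5 CPM in MWCNT_011 and 668 ± 38.3 CPM in air_011, 752 ± 59.4 CPM in MWCNT_022 and 706 ± 115 CPM in air_022, and 733 ± 83.3 CPM in MWCNT_045 and 705 ± 8.94 CPM in air_045 (SD). In MWCNT_090 it stood at 745, 822, 853 and 858 CPM, and in air_090 at 634 to 818 CPM with a median of 692 CPM (edgeR adjusted p = 0.21). Its widest air spread was in air_022, at 569.9 to 904 CPM, which spans the range of the exposed lungs of that set (700 to 858 CPM). Xbp1 and Atf6 passed in no set in the model of all groups. The Atf6 groups did not overlap at 45 mg/m3 (log2 fold change 0.19, edgeR adjusted p = 0.148), where Atf6 passed by limma voom (adjusted p = 0.0239) and with the set fitted alone (edgeR adjusted p = 0.0322), and Atf6 differed among the air groups (edgeR adjusted p = 0.0169).

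A linear slope of the within-set effect per doubling of dose was fitted over the 5 sets, which does not show growth at every step. Of all genes 5.58% passed with a positive and 5.07% with a negative slope (edgeR adjusted p under 0.05). Of the 32 members 8 passed with a positive slope and none with a negative one. These were Dnajc3, Sec61a1 (0.06 ± 0.01 SE, edgeR adjusted p = 0.00124), P4hb (0.05 ± 0.01 SE, edgeR adjusted p = 0.00392), Ssr1, Pdia4, Hyou1, Dnajb11 and Pdia6, with slopes between 0.05 and 0.07 log2 units per doubling. No member had a positive slope that passed once the 180 mg/m3 set or the 11.25 mg/m3 set was left out (0 of 32 each time); leaving out the 22.5 mg/m3 set gave 16. Leaving out library 4 of MWCNT_180 gave 4. The effect itself differed among the 5 sets for Sec61a1, Dnajc3, P4hb, Ssr1 and Txndc5, 5 of 32 where 4.92% of all genes did; without the 180 mg/m3 set none did, and without library 4 of MWCNT_180 the count was 3. Air lungs alone differed among sets for Dnajc3, Atf6 and Sec61a1, 3 of 32 where 7.11% of all genes did, a share near the background; leaving out library 2 or 3 of air_011 gave 1 member and leaving out library 6 of air_022 gave 5.

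The wider pathway, in 9 further lists with 154 genes, held 31 genes that rose and 9 that fell at 180 mg/m3 (each gene at an edgeR adjusted p under 0.05; of all genes 12% rose and 10.9% fell). The counts that follow are of the genes tested in each list, and over the lists their median log2 fold change was 0.05. Of 17 genes that add or trim glycans 7 rose and none fell, led by the oligosaccharyltransferase subunits Stt3a (0.26), Ddost (0.23) and Stt3b (0.28; log2 fold changes). Of 20 genes of vesicle exit and retrieval 7 rose and none fell, led by Tmed10 (0.19), Arf4 (0.22) and Tmed2 (0.20), which act in transport between ER and Golgi. Of 21 other translocation genes 5 rose and none fell, led by the TRAP subunit Ssr4 (0.36) and the signal peptidase subunits Sec11c (0.34) and Spcs3 (0.37). Of 21 other disulfide and prolyl isomerase genes 5 rose and 3 fell; Qsox1, a sulfhydryl oxidase, and Agr2, an isomerase of mucus-producing cells, rose (0.37 and 1.08), and Tmx4 fell (-0.19). Of 20 other ERAD genes 2 rose and 2 fell, shares near those of all genes, among them Vcp, the ATPase that pulls proteins out of the membrane (0.19), and Herpud2 (-0.21). None of 14 other chaperones and co-chaperones, among them the mitochondrial Trap1, was called.

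Of 10 sensors, proteases and related factors of the unfolded protein response none rose and 2 fell. These were Mbtps1, the site-1 protease that cuts ATF6 (-0.19), and the related factor Nfe2l1 (-0.12, edgeR adjusted p = 0.0488). The other 8, among them the sensors Ern1 and Eif2ak3, were not called. With DESeq2 size factors, no filter, the filter of 1 CPM, the set fitted alone or 57 libraries 1 of the 10 fell, and without a filter 1 rose. Of 11 genes of the PERK and ATF4 arm 4 rose and 1 fell: Atf3 (0.53) and Trib3 (0.49), both stress-induced targets of ATF4, were among those that rose, and Vegfa fell (-0.36). Of 12 heat shock genes outside the ER 1 rose (Hspd1, 0.18, a mitochondrial chaperonin) and 1 fell (Hsf1, -0.18, the heat shock factor). None of these lists was tested against the members.

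**Figure D3:**
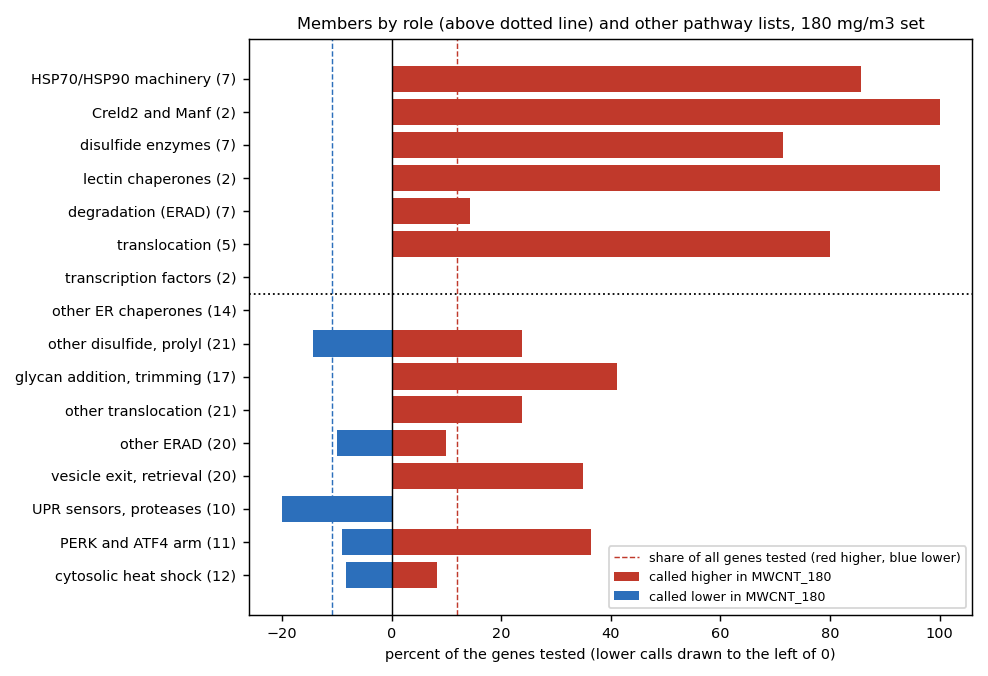
Percent of tested genes called higher (red, right of 0) or lower (blue, left of 0) in MWCNT_180 against air_180 (x axis) for the members by role, above the dotted line, and for the other pathway lists, below it (y axis, with the number of genes tested). Dashed lines give the share of all genes, 12% higher and 10.9% lower; the member roles other than ERAD and the transcription factors lie far to the right of that line.

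Markers of several lung cell types moved in the same libraries, and their part in the members' results was not tested. Of 10 tested macrophage markers 7 rose and 1 fell (Chi3l1, 1.81, and Itgax, 0.85, lead by p), with a summed level of 1538 to 1618 CPM in MWCNT_180 and 921 to 1183 CPM in air_180. The marker that fell was Siglec1 (-0.54), and Mrc1 (-0.28) and Csf1r (-0.06) did not pass. The median log2 fold change of the 10 was 0.66. Chi3l1 alone averaged 576 CPM in MWCNT_180 and 164 CPM in air_180. Without it the sum was 969 to 1026 CPM in MWCNT_180 and 771 to 1011 CPM in air_180, so the groups overlapped. All 10 markers of dividing cells rose (Mki67, 1.66), with a sum of 279 to 298 CPM in MWCNT_180 and 126 to 153 CPM in air_180. Of 11 alveolar type 2 markers 5 rose and none fell (Muc1, 0.64, and Sftpa1, 0.61), with a sum of 31390 to 33290 CPM in MWCNT_180 and 23760 to 30530 CPM in air_180 and of at least 21320 CPM in every library used. Sftpa1 alone averaged 10700 CPM in MWCNT_180 and 7013 CPM in air_180. The median log2 fold change of these markers was 0.21. The 6 not called were Sftpc (0.21), Napsa (0.19), Abca3 (0.15), Slc34a2 (0.08), Etv5 (-0.12) and Sftpb (-0.15). Of 10 club and goblet cell markers 4 rose and 2 fell, among them Scgb1a1 (-0.77), Muc5ac (2.95, from at most 20 counts in any library used) and Bpifb1 (2.45), and the sum was 3469 to 4365 CPM in MWCNT_180 and 4807 to 7731 CPM in air_180. Scgb1a1 alone averaged 3505 CPM in MWCNT_180 and 5982 CPM in air_180, while the median log2 fold change of these markers was 0.381. Of 9 endothelial markers none rose and 6 fell (Tie1, -0.31), with a sum of 3751 to 4130 CPM in MWCNT_180 and 4304 to 4854 CPM in air_180. Of 11 plasma and B cell markers 1 rose (Irf4, 0.85) and none fell, where 12% of all genes rose. Their median log2 fold change was -0.236. The sum was 446 to 453 CPM in MWCNT_180 and 372 to 447 CPM in air_180. It rests mostly on Sdc1, which reached up to 6025 counts in a library used, while the next, Prdm1, reached up to 694. Of 8 fibroblast markers 1 rose and 1 fell (sum 6333 to 6879 CPM in MWCNT_180 and 5961 to 6416 CPM in air_180), and no liver marker of 13 was called (sum 186 to 307 CPM in MWCNT_180 and 136 to 360.0 CPM in air_180). The fibroblast marker that rose, Fn1, averaged 2311 CPM in MWCNT_180 and 1832 CPM in air_180, while the median log2 fold change of the fibroblast markers was -0.072. The macrophage marker Marco was at 0 counts in 45 of the 53 libraries, Col1a2 in 44 and Muc5ac in 18.

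Between rats of the same group, many members varied together with Hspa5. After subtracting group means from log2 (CPM + 1), 27 of 31 members had a positive Pearson r with Hspa5 over the 53 libraries (median 0.523), and 22 had an adjusted p under 0.05 (permutation test with 100000 shuffles within groups, two-sided, Benjamini-Hochberg over 31 relations; 21 by Spearman's rho). The highest was Hsp90b1 (r = 0.936, rho = 0.934, adjusted permutation p = 3.1e-05 for r), followed by Pdia4 (r = 0.865, rho = 0.845) and Hyou1 (r = 0.788, rho = 0.813); their raw p of 1e-05 is the smallest that the shuffles can give. Without the 2 libraries farthest from the Hspa5 median, 2 and 6 of air_022, these 3 had r = 0.929, 0.855 and 0.819, the median r was 0.481, and 19 members passed. Within the air libraries alone 23 members passed, and within the MWCNT libraries alone 14, with either sign of r counted. A limma fit with the groups and Hspa5 as a covariate was run on all 15994 other genes, with p-values adjusted over all of them. In it 20 of the 31 members passed with a positive and none with a negative relation, where 2.21% of all genes passed with a positive and 2.3% with a negative one. The median r over all genes was 0.022. Without libraries 2 and 6 of air_022 that fit called 11 members (0.344% of all genes were called positive), and within the MWCNT libraries alone 3 (0.144% of all genes). Within the air libraries alone it called 20 members with a positive and 3 with a negative relation. There 10.5% of all genes were called positive and 10.3% negative.

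Covariation and response to MWCNT did not always go together. Dnajc3 rose at 180 mg/m3, but its r with Hspa5 was 0.041 (rho = 0.071, adjusted permutation p = 0.803 for r; r = 0.13 without the 2 libraries). Txndc5 and Canx, which also rose, had r = 0.161 and 0.117 (rho = 0.171 and 0.218; adjusted permutation p = 0.28 and 0.495; r = 0.051 and 0.261 without the 2 libraries). Xbp1, which did not pass the exposure test, had r = 0.618 (rho = 0.637, adjusted permutation p = 0.000129; r = 0.509 without the 2 libraries). Atf6, Edem1, Sel1l and Derl2 were the 4 members with a negative r, the lowest being Atf6 (r = -0.317, rho = -0.254, adjusted permutation p = 0.0608), which was -0.118 without the 2 libraries.

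**Figure D4:**
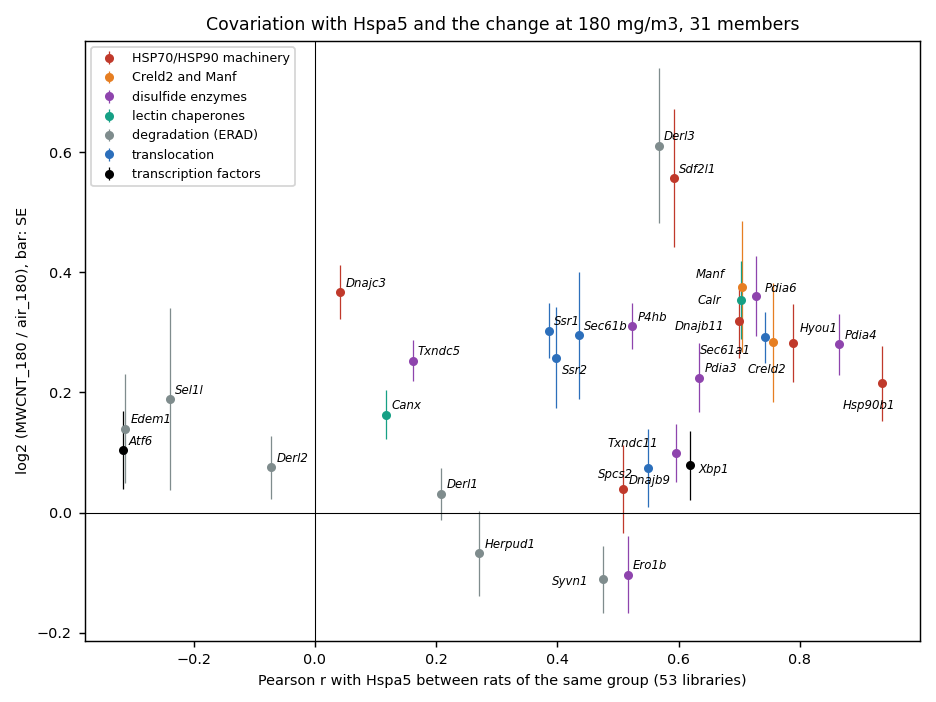
Each of 31 members by its Pearson r with Hspa5 between rats of the same group (x axis, 53 libraries, group means subtracted) and its log2 fold change of MWCNT_180 over air_180 (y axis; bars are the SE), coloured by role. Hsp90b1, Pdia4 and Hyou1 lie at the right with r between 0.788 and 0.936; Dnajc3 lies near an r of 0 with a log2 fold change of 0.37, and the ERAD genes other than Derl3 lie low.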

How the data were processed

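Rat lung RNA was sequenced from 60 stranded mRNA libraries made with 12 cycles of PCR, per the labels' protocols. The authors deposited 1 table of raw counts per gene, in whole numbers, with no normalization. The submitters' processing notes name bcl2fastq 2.19, Trimmomatic 0.35, HISAT2 2.1.0, Cufflinks, SAMtools 1.8 and HTSeq 0.11.2. Genome build, annotation and the strand setting of the counting: not given in the sources used here. Counts of overlapping genes, antisense genes and copies are therefore uncertain.

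The 7 libraries labelled as outliers were left out, which left 53. Genes were filtered with filterByExpr (minimum count 10), and the 15995 kept were scaled by TMM and fitted with edgeR 4.0.16 (R 4.3.3, limma 3.58.1), as a robust quasi-likelihood model of 10 groups (set by treatment). Each MWCNT group was contrasted with the air group of its own set, and p-values were adjusted by Benjamini-Hochberg over the 15995 genes with a threshold of 0.05. The dose slope is the change of the within-set log2 fold change per doubling of dose. The other 2 tests asked whether that effect differed among the sets and whether the air groups differed. The scripts were tested on simulated data with 200 changed genes. CPM values are the deposited counts scaled by library size and TMM factor; summed levels use library size alone. No molecular identifiers are described, so counts are of reads, and no library of a group differed from another by less than sampling noise (smallest chi-square per degree of freedom 2.52).

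Correlations used log2 (CPM + 1); the limma fit of all genes on Hspa5 was chosen after seeing the data. Promoter windows are RefSeq's (GRCr8), and overlaps and pseudogenes come from the RefSeq gene table of the same build, whose coordinates may not be those of the counting. Levels in each library are given for Hspa5, Xbp1 and Atf6 and for the members with the smallest p for the dose slope among those called, then with the smallest p at 180 mg/m3, up to 10 in all. Of every other list at most 3 called genes with the smallest p are named, and of the macrophage markers also Siglec1, which fell. A gene that this rule would name is not reported here. The members and lists were chosen with earlier results of these data known. Alternatives were DESeq2 1.42.0, its size factors, limma voom with quality weights, other filters, all 60 libraries, each set fitted alone, sets or libraries left out, a linear dose scale and other pseudocounts. Xbp1 splicing cannot be read from gene counts.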

Additional observations from a re-analysis of the deposited data

Results flagged for a closer look

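In 90 groups of 4 to 6 libraries, over the 10 members given by library, 6 had a library far from the others of its group; chance flags about 1 in 20 groups. Dnajb11 had 3 of these: library 5 of MWCNT_022 at 103.8 CPM (the others 80.1 to 87.1 CPM), library 2 of air_022 at 98.6 CPM (the others 71.8 to 81.4 CPM) and library 2 of air_011 at 70.2 CPM (the others 74.3 to 75.9 CPM). Library 2 of MWCNT_090 had Hyou1 at 187 CPM, where the others lay at 200.8 to 201 CPM. Library 2 of air_022 had Atf6 at 101.7 CPM, below the other 5 at 131.6 to 143.7 CPM, and library 1 of air_011 had Sec61a1 at 187 CPM, above the other 5 at 179 to 181 CPM. Library 2 of air_022 is also the 1 whose removal moved the count of members called at 22.5 mg/m3 to 10, against 5 with it.

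The effect of MWCNT differed among the 5 sets for Sec61a1 (edgeR adjusted p = 0.00483), Dnajc3 (edgeR adjusted p = 0.00777), P4hb (edgeR adjusted p = 0.0166), Ssr1 (edgeR adjusted p = 0.0228) and Txndc5 (edgeR adjusted p = 0.0272).

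Among the libraries with an outlier label, 4 had a summed level of the 32 members above the highest air library used (8057 CPM). These were library 1 of MWCNT_180 at 8816 CPM, libraries 5 and 6 of MWCNT_090 at 9594 and 9117 CPM, and library 5 of air_045 at 8674 CPM. Liver genes made up 20.6% and 21% of the counts in the 2 libraries of MWCNT_090 and 18.6% in the library of air_045, against 0.146% in library 1 of MWCNT_180.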

How the results depend on the processing

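With all 60 libraries, including 3 with liver genes at 18.6% to 21% of counts, the members called were 1 at 180 mg/m3, 29 at 90, 0 at 45 and 0 at 22.5 mg/m3, with 0 for the dose slope, 25 for a difference among sets and 1 among air groups. In that fit 5 log2 fold changes turned: Dnajb9 (0.66), Derl1 (1.06), Syvn1 (0.78) and Xbp1 (0.47) at 90 mg/m3, and Dnajc3 at 45 mg/m3 (-1.21). Limma voom gave 14 at 90, 3 at 45, 13 for the slope, 9 among sets and 8 among air groups. Without a filter the counts were 3 at 22.5 mg/m3 and 2 among sets. With DESeq2 size factors 3 passed at 22.5 mg/m3. Sets fitted alone gave 2 at 45 and 0 at 22.5 mg/m3. The slope passed for 0 members without the 180 mg/m3 set, 16 without the 22.5 and 0 without the 11.25 mg/m3 set, and the difference among sets for 0 without the 180 mg/m3 set. Chosen after seeing the data, 57 libraries gave 2 at 22.5 mg/m3, and leaving out libraries 2 and 6 of air_022 gave 8. Among MWCNT libraries alone 14 members correlated with Hspa5. Leaving out 1 library gave 17 to 20 at 180, 1 to 11 at 90, 0 to 1 at 45, 1 to 10 at 22.5 and 0 at 11.25 mg/m3, 4 to 11 for the slope, 3 to 6 among sets and 1 to 5 among air groups. At 180 mg/m3 every alternative other than all 60 libraries gave 17 to 21 members. The cause of these shifts was not tested. For these alternatives of the exposure, slope and set tests the share of all genes called was not worked out. Their member counts can therefore not be set against a background. No paired analysis was possible because the labels number each rat singly and no number is shared between groups.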

Other observations

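ER stress elements were also found in the promoter windows of 26 genes outside the list. Without a search for older names, 15 of these matched a tested gene by symbol. At 180 mg/m3, 5 of them rose: Birc5, an inhibitor of apoptosis of dividing cells (log2 fold change 1.29, edgeR adjusted p = 5.06e-07), Cdc45, a replication helicase factor (0.91, 2.15e-05), Rcl1, of ribosome assembly (0.56, 8.08e-08), Zfand2a, a proteasome-linked stress protein (0.29, 0.000116), and Hnrnpa3, an RNA-binding protein (0.20, 5.42e-05). Ankmy2 and Prkcz fell (-0.20 and -0.17, edgeR adjusted p = 0.000391 and 0.00306), where 12% of all genes rose and 10.9% fell. These genes were picked by their windows, and Birc5 also stands on the list of dividing-cell markers, all 10 of which rose. Nucb1, a calcium-binding protein of the Golgi that holds such an element too, did not pass (386 CPM in MWCNT_180 and 396 CPM in air_180 on average, log2 fold change -0.04).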
